A study of Rattus norvegicus with 21 samples.

Results

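The genes described here fell between 2 and 16 weeks in the bladders of uninjured rats and, in separate animals, in the bladders of rats with spinal cord injury (SCI). Of 32754 genes in the count table, 15225 passed a filter on low counts and 46 of these were members. The remaining 17529 genes were not tested and could not be members. Members were selected on log2 CPM, the log2 of the count after scaling to a common library total (CPM). The mean at 16 weeks had to lie at least 0.5 below the mean at 2 weeks in controls and also in SCI bladders, and all 3 libraries at 16 weeks had to lie below all 3 at 2 weeks in each arm. The falls from 2 to 16 weeks therefore chose the genes and are given as a description, with no test.

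RNA was sequenced from the full-thickness urinary bladder of wild-type male rats of the outbred Sprague Dawley stock. SCI rats received a complete transection of the thoracic spinal cord at 6 to 7 weeks of age and were studied 2, 8 or 16 weeks later, and uninjured control rats were studied at 0, 2, 8 and 16 weeks without a transection. Each of the 7 groups held 3 libraries, each labelled as a numbered replicate and taken here as a separate animal. This gave 21 libraries with 8087726 to 15472537 counts and a median of 9584812. The controls were matched to the injured rats per the series' description, and the age of the 0-week controls is not given in the sources used here. A control week is therefore read as time and not as a stated age. There was no 0-week SCI group, and a week in the SCI arm stood for both the age of the rat and the time since injury.

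The bladder wall consists of the urothelium, a lamina propria rich in fibroblasts and matrix, and the detrusor smooth muscle. Young rats continue to grow over the months covered here, and in growing organs the genes of tissue building are generally used more than in mature ones. Transection above the sacral cord abolishes voluntary emptying and leads to an overactive bladder that works against an obstructed outlet, with thickening of the wall. The count table gives Ensembl identifiers and does not pair them with gene symbols, and the RefSeq gene table at hand matched 0 of them. The 46 genes are therefore described by level and behaviour, their roles are not stated, and 4 identifiers are printed as examples. For the same reason, the tissue label could not be checked against marker genes, and the content of other cell types was not tested. In whole tissue, fewer cells of a type and less RNA per cell cannot be told apart.

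The first question was how many genes fell in each arm. The condition was met by 803 genes in controls, which is 5.27% of tested genes, and by 283 genes in SCI bladders, which is 1.86%. The 46 genes that met it in both arms (0.302% of tested genes) were 5.73% of the control list and 16.3% of the SCI list. The same condition in the upward direction was met by 1018 genes in controls (6.69%), 323 in SCI bladders (2.12%) and 111 in both (0.729%), so fewer genes fell than rose in both arms. Opposite movement was seen for 23 genes, of which 10 fell in controls and rose in SCI bladders and 13 did the reverse. The median of all tested genes moved by 0.01 in controls and by -0.00342 in SCI bladders on the log2 scale.

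**Figure D1:**
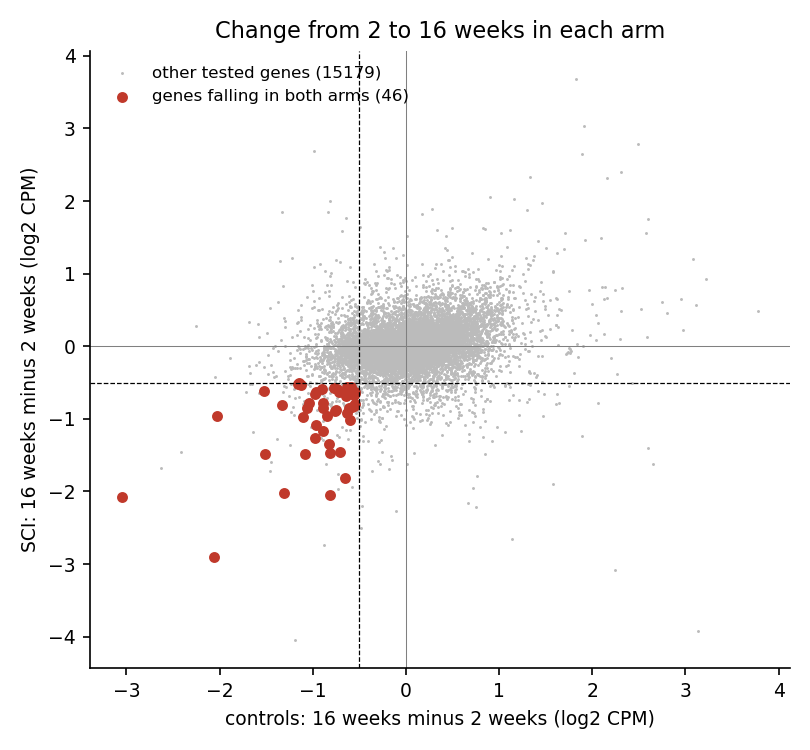
Change in log2 CPM from 2 to 16 weeks for each tested gene, with controls on the horizontal axis and SCI bladders on the vertical axis. The 46 members (red) lie below -0.5 on both axes (dashed lines), a region they share with genes whose 2-week and 16-week libraries overlapped in either arm.

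Among the members, the fall in controls had a median of -0.84 and ranged from -3.05 to -0.54 on the log2 scale. In SCI bladders the median was also -0.84, with a range from -2.90 to -0.51. A fall of at least 1 was measured for 14 members in controls and for 14 in SCI bladders, but for only 5 in both. The fall was larger in SCI bladders for 25 members and larger in controls for 21, and the falls of the arms lay within 0.25 of each other for 20 members. The median difference between the falls was -0.06, with single genes from -1.24 (a larger fall after SCI) to 1.07 (a larger fall in controls). The sizes of the falls thus differed widely from gene to gene although their medians were alike.

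Genes near the threshold were similar on both sides of it. The members closest to it had a smaller fall of -0.51, -0.52 and -0.53, in each case in the SCI arm, against -1.15, -1.16 and -1.13 in controls. Genes just outside it, whose libraries did not overlap in either arm, had a smaller fall of -0.498, -0.494 and -0.489. Without a minimum fall, 272 genes met the condition that libraries did not overlap. The list of 46 is therefore a section of a continuous range.

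The members covered a wide range of levels. Their mean log2 CPM over the 21 libraries had a median of 2.10, against 4.43 for all tested genes, and ran from -0.34 to 13.5. A mean under 1 was found for 15 members, from 1 to 5 for 22, from 5 to 10 for 6 and above 10 for 3. At the lower end the counts were small: 18 members had fewer than 10 counts in at least 1 library, and the lowest count behind a 16-week value was 1. The biological coefficient of variation, the spread between animals beyond counting error, had a median of 0.213 among members and 0.134 among all tested genes.

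The 3 most abundant members dominated the counts. Together the 46 genes held 5.86% ± 1.22 (SD, n = 3) of all counts in controls at 0 weeks and 4.29% ± 0.809 at 2 weeks. The share was 3.35% ± 0.824 at 8 weeks and 2.44% ± 0.396 at 16 weeks in controls (SD, n = 3 each). In SCI bladders it was 3.61% ± 1.04 at 2 weeks, 1.23% ± 0.197 at 8 weeks and 1.03% ± 0.333 at 16 weeks (SD, n = 3 each). The libraries of SCI at 8 weeks lay between 1.06% and 1.44% and those of controls at 8 weeks between 2.40% and 3.87%, so these groups did not overlap, whereas at 2 weeks they did. Of the counts held by the members, 90.0% to 97.5% came from the 3 most abundant ones. At 8 weeks the other 43 genes held 0.1004% ± 0.0118 of the counts in controls and 0.1008% ± 0.00933 after SCI (SD, n = 3 each). This difference was smaller than the spread between libraries, so the gap in the summed share at 8 weeks lay in the 3 abundant genes. The shares are of raw counts, without scaling factors, and a sum can hide opposite differences of single genes. The 4 members called higher after SCI at 8 weeks, described below, were all among these 43, and so were several called lower. In 0-week controls the share of these 43 genes was 0.182% ± 0.0162 (SD, n = 3). In the libraries that chose the genes it was 0.177% ± 0.0236 in controls and 0.132% ± 0.0107 in SCI bladders at 2 weeks, and 0.0915% ± 0.0109 and 0.0750% ± 0.0114 at 16 weeks (SD, n = 3 each).

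**Figure D2:**
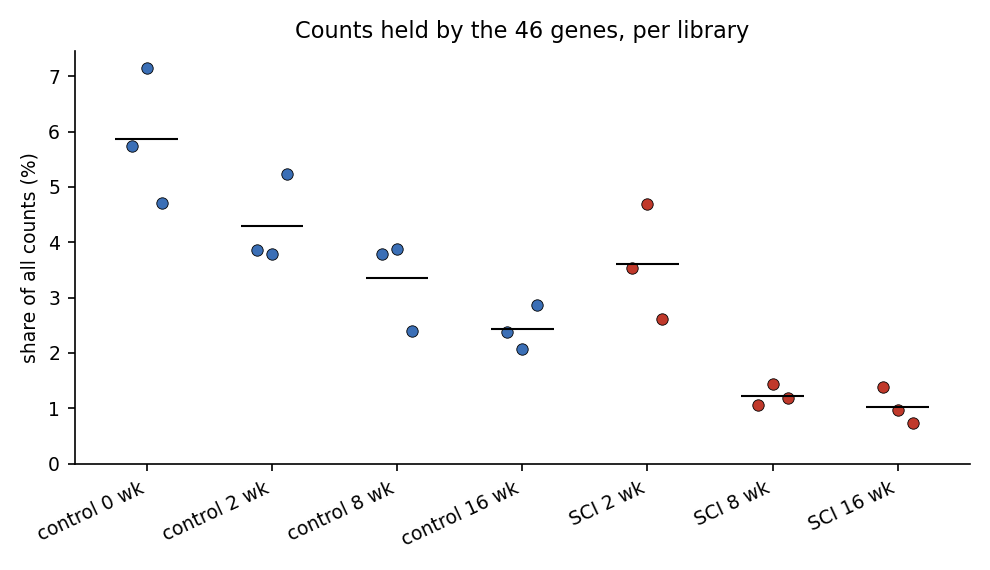
Share of all counts held by the 46 genes in each library, in percent, with the group mean as a line (blue, controls; red, SCI). The share fell from 5.86% in 0-week controls to 2.44% in 16-week controls, and the SCI libraries at 8 and 16 weeks lie below every control library.

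The most abundant member was ENSRNOG00000003897. In controls it measured 29512, 38913 and 21274 CPM at 0 weeks and 16937, 16581 and 23811 CPM at 2 weeks. It then measured 20461, 19479 and 11257 CPM at 8 weeks and 10351, 9474 and 12596 CPM at 16 weeks. In SCI bladders it measured 15916, 20997 and 10698 CPM at 2 weeks, 3722, 5967 and 4055 CPM at 8 weeks and 5499, 3693 and 2484 CPM at 16 weeks. The SCI libraries overlapped the controls at 2 weeks and lay below all of them at 8 and 16 weeks. Its mean fell from 2 to 16 weeks by 0.81 on the log2 scale in controls and by 2.05 in SCI bladders.

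At 8 weeks, in libraries that took no part in choosing the genes, ENSRNOG00000003897 was 17066 ± 5054 CPM in controls and 4582 ± 1211 CPM after SCI (SD, n = 3 each). The difference was -1.90 ± 0.33 (log2 fold change ± SE; edgeR adjusted p = 0.00777), and all 3 SCI libraries were below all 3 controls. This call was lost without SCI 8 weeks replicate 1 (edgeR adjusted p = 0.0560) or replicate 3 (0.0523), and over 30 alternatives the adjusted p ranged from 9.06e-07 to 0.0560. Between controls of 0 and 8 weeks the log2 fold change was -0.81 (SE 0.32), which did not pass the threshold (edgeR adjusted p = 0.194).

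The next most abundant members, the second and the third by level, also had lower SCI values. The second measured 21782, 32364 and 20194 CPM in controls at 0 weeks and 16214, 17938 and 11448 CPM at 8 weeks, against 3987, 6296 and 4816 CPM after SCI at 8 weeks. The third measured 4292, 5853 and 3545 CPM in controls at 0 weeks and 3033, 3568 and 1982 CPM at 8 weeks, against 1066, 1342 and 1012 CPM after SCI at 8 weeks. For each of them the 8-week SCI libraries lay below every control library of 8 weeks. The difference of SCI from control at 8 weeks was -1.59 ± 0.28 (log2 fold change ± SE; edgeR adjusted p = 0.00787) for the second gene and -1.33 ± 0.28 (edgeR adjusted p = 0.0162) for the third. These calls were lost as well without SCI 8 weeks replicate 1 (edgeR adjusted p = 0.0560 and 0.0895) or replicate 3 (0.0521 and 0.0840), and over 30 alternatives the adjusted p ranged from 1.81e-06 to 0.0560 for the second gene and from 0.000247 to 0.0895 for the third.

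The 8-week libraries were also used to place the fall in time. The mean of the 8-week controls was below that of the 2-week controls for 42 of 46 members, and the mean of SCI at 8 weeks was below that of SCI at 2 weeks for all 46. The 2-week groups had been chosen for high values, so these counts are a description. At 8 weeks the median member had covered 0.653 of its fall in controls and 0.848 of its fall in SCI bladders. Taken library by library, this share was 0.612, 0.591 and 0.820 in the 3 controls of 8 weeks and 0.740, 0.841 and 0.651 in the 3 SCI bladders, and the arms overlapped. The mean at 8 weeks lay between those of 2 and 16 weeks for 29 members in controls and for 33 in SCI bladders. It was already below the 16-week mean for 13 members in each arm.

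**Figure D3:**
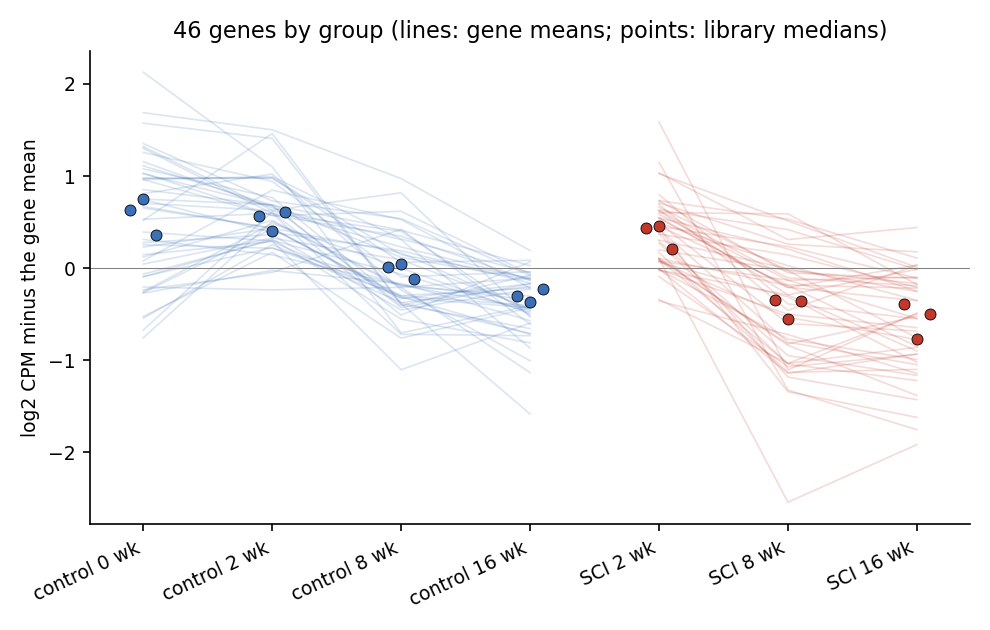
Log2 CPM of the 46 genes relative to the mean of each gene over the 21 libraries. Thin lines join the group means of each gene and points give the median over the 46 genes in each library. The library medians lay from 0.356 to 0.753 in 0-week controls, from -0.122 to 0.0403 in 8-week controls and from -0.555 to -0.347 in SCI bladders at 8 weeks.

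Controls at 0 weeks extended the series to the earliest time. The rule chose members that were high at 2 weeks and low at 16 weeks, which raises 2-week and lowers 16-week values against any other group, so the counts that follow are a description from which no direction is read. The mean was lower at 2 than at 0 weeks for 23 of 46 members, with a median change of -0.01 and a range from -1.03 to 1.28. The 3 libraries of 2 weeks lay below all 3 of 0 weeks for 2 members and above them for 7, where 7.53% and 8.12% of tested genes did so. The control means fell at each step from 0 through 2 and 8 to 16 weeks for 13 members. The 16-week controls lay below every 0-week control for 29 members (7.03% of tested genes) and above them for 0 (7.21%). The 16-week SCI bladders lay below them for 26 members (11.7% of tested genes) and above them for 0 (9.44%).

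Change with time was then tested in controls that had not been used to choose the genes, by comparing those of 8 and 0 weeks. The members had a median log2 fold change of -0.60, with a range from -2.89 to 0.73, and the median of all tested genes was -0.000572. The value was negative for 36 of 46 members (78.3%), against 50.1% of tested genes. The 8-week controls lay below all 0-week controls for 20 of 46 members (43.5%), where 6.86% of tested genes did so, and above them for 0, where 7.74% did so. With edgeR's quasi-likelihood test, only 1 of 46 members passed an adjusted p of 0.05. In this comparison 3 of all tested genes (0.0197%) were lower and 0 (0%) were higher. At an unadjusted p under 0.05, 23 members were lower and 0 higher, where 9.82% and 9.41% of tested genes were, and the edgeR adjusted p of these 23 ranged from 0.00724 to 0.253. DESeq2 called 9 members lower out of 39 for which it gave an adjusted p, where it called 1.23% of its genes lower. Without control 0 weeks replicate 2, edgeR called 10 members lower, and the share of all tested genes called lower rose with it to 6.89%. Without control 8 weeks replicate 1, it called 0 members and 0% of tested genes. It called 3 members when any of control 0 weeks replicate 3, control 2 weeks replicate 3, control 8 weeks replicate 2 and SCI 16 weeks replicates 1 and 2 was left out, where 0.0259% to 0.22% of tested genes were called lower.

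The member called between 8 and 0 weeks was expressed at a low level. It measured 13.4, 20.3 and 19.3 CPM in controls at 0 weeks, 7.58, 7.51 and 10.5 CPM at 2 weeks, 1.89, 1.83 and 3.37 CPM at 8 weeks and 2.52, 3.60 and 2.52 CPM at 16 weeks. Every 8-week control was below every 0-week control, and the mean fell by a factor of 7.47. On the log2 scale it fell by 2.89 ± 0.40 (SE, with an edgeR adjusted p of 0.00724). Over 29 alternatives the adjusted p ranged from 9.21e-09 to 0.198, and the call was lost without control 8 weeks replicate 1 (edgeR adjusted p = 0.0924) and when these groups alone were fitted (0.198). After SCI the gene measured 4.76, 3.83 and 3.88 CPM at 2 weeks, 1.20, 5.02 and 1.37 CPM at 8 weeks and 1.05, 1.09 and 2.08 CPM at 16 weeks. The arms differed by 0.05 ± 0.44 at 8 weeks (log2 fold change ± SE; edgeR adjusted p = 0.953).

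A larger number of members differed when SCI bladders of 8 weeks were compared with the 0-week controls, a comparison that combines time and injury. By edgeR's adjusted p, 22 of 46 members (47.8%) were lower and 0 were higher, where 3.44% of tested genes were lower and 0.821% higher. The log2 fold changes of the 22 ran from -4.70 to -0.84, and the median over all members was -0.94. The groups did not overlap for 22 members in the downward direction (9.83% of tested genes) and for 4 in the upward direction (8.2%). At an unadjusted p under 0.05, 24 members were lower and 5 higher, against 11.1% and 8.83% of tested genes, and the fold change was negative for 34 members (73.9%) against 48.4% of tested genes. DESeq2 called 1 member higher (2.12% of its genes), and edgeR did so when any of control 0 weeks replicate 3, SCI 2 weeks replicate 3 and SCI 8 weeks replicate 2 was left out (0.757% to 2.36% of tested genes). This comparison shares its libraries with the comparison above and with the one that follows, so the counts are not independent of each other.

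The next question was whether the members differed between SCI and control bladders of the same week. At 8 weeks, 12 of 46 members (26.1%) were lower after SCI by edgeR's adjusted p and 4 (8.7%) were higher, where 5.14% of tested genes were lower and 3.28% higher. The log2 fold changes ran from -3.96 to -0.71 among the 12 and from 0.55 to 1.73 among the 4. The SCI libraries lay below all controls for 19 members (41.3%) and above them for 5 (10.9%), where 14.7% and 13.9% of tested genes did so. The fold change was negative for 24 members (52.2%), near the 49.6% of all tested genes. At an unadjusted p under 0.05 there were 17 lower (37%) and 6 higher members (13%), against 14.8% and 13.1% of tested genes. For the 30 members that did not pass, the fold changes ran from -1.38 to 0.98 with a median standard error of 0.39, so that differences of moderate size were not detectable for many of them. The spread in these fits was estimated from all 21 libraries, those of the rule included. When only the groups compared were fitted, 37 members passed the count filter at 8 weeks, of which 8 were lower and 0 higher, where 1.56% and 0.683% of tested genes were. In SCI at 8 weeks against 0-week controls, 39 members passed the filter and 11 were lower, where 0.242% of tested genes were. In controls of 8 against 0 weeks, 0 of 39 members were lower, as were 0% of tested genes. With all libraries fitted, members were thus called in both directions. By overlap and by unadjusted p, however, higher members were no more common than higher genes among all tested genes. No rise of the members as a set is read from the 4 higher calls.

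These counts rested on single animals. Without SCI 8 weeks replicate 1 or without SCI 8 weeks replicate 3, 3 members were called lower and 0 higher. The shares of all tested genes called lower were then 0.188% and 0.349%, and those called higher 0.0194% and 0.0453%. Without control 8 weeks replicate 2 or 3, 2 members were called higher, where 0.711% and 1.42% of tested genes were. Leaving out any other single library gave 8 or more members lower and 3 or more higher.

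**Figure D4:**
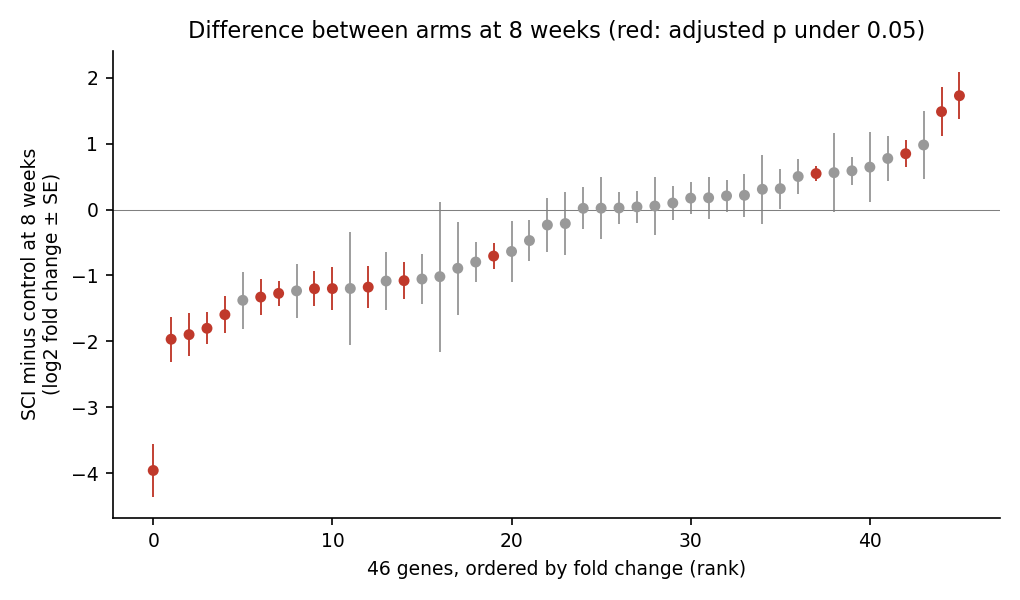
Log2 fold change between SCI and control bladders at 8 weeks for the 46 members, ordered by size, with standard errors (3 libraries per group). Red marks the 12 lower and 4 higher genes that passed an edgeR adjusted p of 0.05.

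Of the 12 members that were lower after SCI at 8 weeks, 7 had the larger fall with time in the SCI arm and 5 in the control arm. Their median fall was -0.85 in controls and -0.88 in SCI bladders, and their levels ran from 0.94 to 13.5 log2 CPM. The 4 members that were higher had levels from 0.35 to 3.66 log2 CPM and included none of the abundant genes. For all members, the median difference of SCI from control was -0.16 at 2 weeks, -0.17 at 8 weeks and -0.23 at 16 weeks. The SCI mean was lower at all 3 weeks for 17 members and higher at all 3 weeks for 13.

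The difference of SCI from control averaged over 2 and 16 weeks is given as a description only, because it comes from the libraries that chose the genes. Nothing is read from its calls about the members. The median difference over the members was -0.17, and 27 of them (58.7%) had a negative value, where 50.9% of tested genes did. The edgeR adjusted p was under 0.05 for 10 lower members, with values from -1.84 to -0.62, and for 3 higher members, with values from 0.61 to 1.52, where 2.78% and 1.4% of tested genes were called. At an unadjusted p under 0.05, 19 members were lower and 7 higher, against 13.4% and 10.9% of tested genes.

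These counts also moved with single animals. Lower members numbered 2 when SCI 2 weeks replicate 3 was left out and 4 when control 2 weeks replicate 3 was. They numbered 5 when SCI 2 weeks replicate 1 or the third SCI animal of 16 weeks (replicate 3) was left out, and 6 when control 2 weeks replicate 1 or the second SCI animal of 16 weeks (replicate 2) was. Higher members numbered 0 when SCI 2 weeks replicate 3 was left out. They numbered 1 when any of control 2 weeks replicates 1 and 3, the 16-week controls, SCI 2 weeks replicate 1 and SCI 16 weeks replicates 1 and 2 was. In the fits named here, 0.479% to 1.77% of tested genes were called lower where the lower count is given and 0.0906% to 0.789% higher where the higher count is.

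A member that fell with time and was higher after SCI was ENSRNOG00000007255. In controls it measured 12.7, 9.11 and 11.0 CPM at 0 weeks, 15.1, 16.8 and 12.1 CPM at 2 weeks, 9.22, 8.02 and 6.52 CPM at 8 weeks and 5.44, 8.12 and 6.30 CPM at 16 weeks. In SCI bladders it measured 19.4, 16.7 and 21.6 CPM at 2 weeks, 14.8, 10.6 and 17.2 CPM at 8 weeks and 12.6, 12.1 and 14.8 CPM at 16 weeks. SCI libraries lay above all controls at 8 and 16 weeks and overlapped them at 2 weeks. The 8-week difference was 0.85 ± 0.20 (log2 fold change ± SE; edgeR adjusted p = 0.0221). Over the 2- and 16-week libraries, which chose the gene, the average difference was 0.70. Of 30 alternatives, with an adjusted p from 0.00336 to 0.110, in 5 the 8-week difference no longer passed the threshold. They left out SCI 8 weeks replicate 1 or 3 (edgeR adjusted p = 0.110 in each) or control 8 weeks replicate 2 or 3 (0.0576 and 0.0686), or fitted these groups alone (0.0843).

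The largest positive difference at 8 weeks was that of ENSRNOG00000057865, a gene of low level. It measured 3.23, 1.99 and 3.23 CPM in controls at 0 weeks, 2.85, 2.77 and 2.13 CPM at 2 weeks, 0.591, 1.72 and 0.562 CPM at 8 weeks and 0.994, 1.85 and 1.15 CPM at 16 weeks. In SCI bladders it measured 3.45, 2.49 and 3.88 CPM at 2 weeks, 2.83, 3.17 and 3.62 CPM at 8 weeks and 1.76, 1.89 and 1.73 CPM at 16 weeks. At 8 weeks the SCI libraries were still at their 2-week level while 2 of the 3 controls rested on 5 counts each. The arms differed by 1.73 ± 0.36 at this week (log2 fold change ± SE; edgeR adjusted p = 0.0151). The call was lost without SCI 8 weeks replicate 1 (edgeR adjusted p = 0.0560) or replicate 3 (0.0692) and with these groups alone (0.0727), within a range from 0.00106 to 0.0727 over 30 alternatives. Averaged over the 2- and 16-week libraries, which chose the gene, the difference was 0.39.

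**Figure D5:**
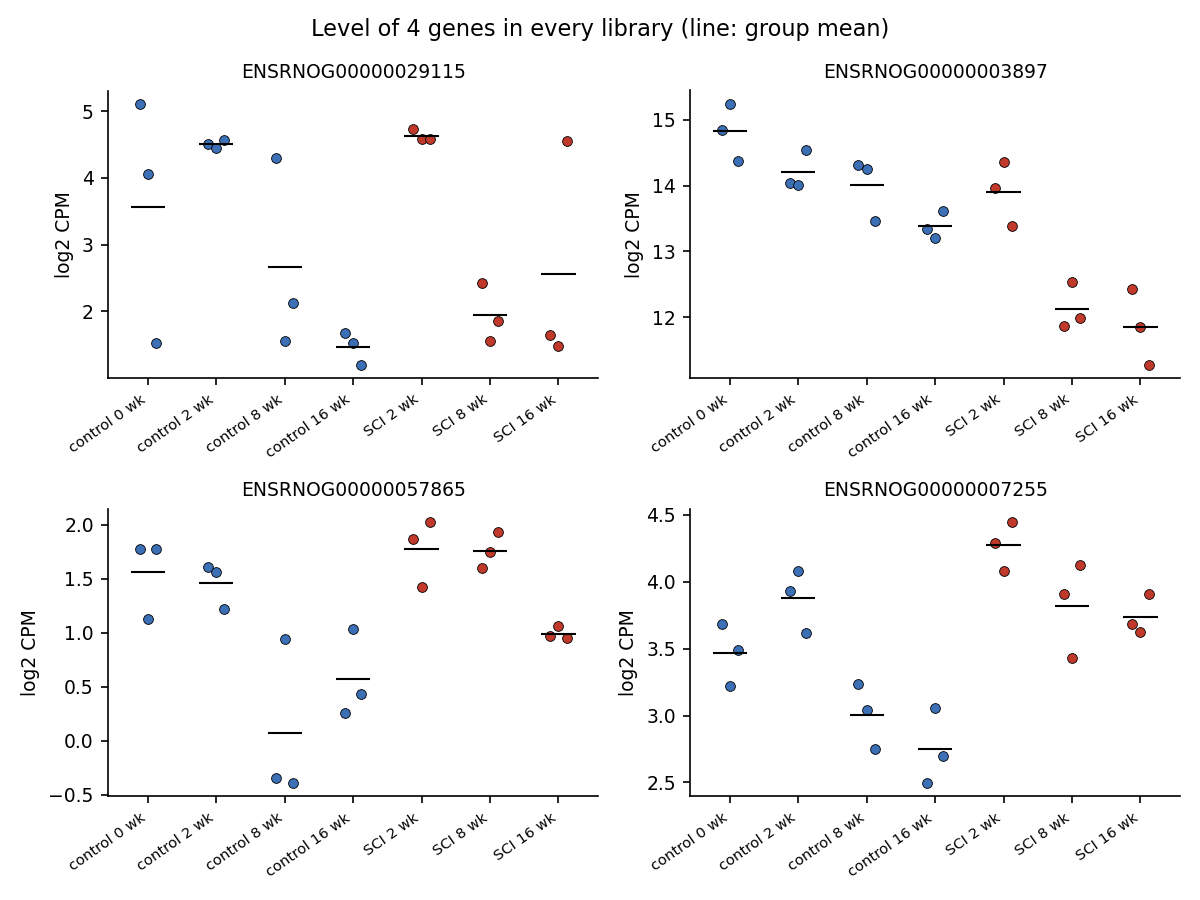
Log2 CPM of 4 members in each of the 21 libraries, with the group mean as a line (blue, controls; red, SCI). ENSRNOG00000003897 falls further after SCI, ENSRNOG00000007255 and ENSRNOG00000057865 are higher after SCI at 8 weeks, and ENSRNOG00000029115 takes either a high or a low level.

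The largest mean fall among members with a mean log2 CPM of at least 1 was that of ENSRNOG00000029115, and it did not have a graded course. It measured 34.4, 16.5 and 2.68 CPM in controls at 0 weeks, 22.7, 21.6 and 23.5 CPM at 2 weeks, 19.5, 2.75 and 4.16 CPM at 8 weeks and 2.98, 2.67 and 2.10 CPM at 16 weeks. In SCI bladders it measured 26.4, 23.8 and 23.8 CPM at 2 weeks, 5.15, 2.73 and 3.42 CPM at 8 weeks and 2.93, 2.59 and 23.3 CPM at 16 weeks. The libraries fell into separate levels, with 10 between 16.5 and 34.4 CPM and 11 between 2.10 and 5.15 CPM, and 1 library of the 16-week SCI group was at the high level. The gene met the condition in the SCI arm by a margin of 0.0287 on the log2 scale. With all libraries it passed the threshold in none of the 3 comparisons of libraries outside the rule, and the arms differed at 8 weeks by -1.20 ± 0.86 (log2 fold change ± SE; edgeR adjusted p = 0.384). Without control 0 weeks replicate 3, which was at the low level, SCI at 8 weeks was lower than the 0-week controls (edgeR adjusted p = 0.0360, against 0.132 with all libraries and a range from 0.0360 to 0.414).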

How the data were processed

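Bladder RNA was measured in 21 libraries, each taken as a separate rat. The authors depleted ribosomal RNA, built strand-specific libraries, read them from both ends on 2 flow cells and added the counts of both. They deposited unnormalized counts for each Ensembl gene. The submitters' processing notes name Rnor_6.0, Trim Galore 0.6.10, STAR 2.7.10a and featureCounts 2.0.3. Which annotation release was counted, and whether by strand, was not given in the sources used here, so overlapping genes and near-identical copies may share reads.

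Counts were filtered with filterByExpr on the 7 groups and scaled by TMM in edgeR (version 4.0.16, R version 4.3.3; factors 0.903 to 1.09). Log2 CPM used a prior count of 2, and CPM is given without one. All libraries were fitted in 1 quasi-likelihood model without covariates (14 residual degrees of freedom). Benjamini-Hochberg adjustment ran over all tested genes (threshold 0.05). For a single gene, exact permutation of 3 against 3 animals reaches a two-sided p of 0.1 at the lowest. Every pair of replicates differed by more than sampling noise (chi-square per degree of freedom 7.22 to 59.9).

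The members and lists were chosen with earlier results of these data known. Gene lists, marker lists and the rule for named genes needed symbols and were not used. The named-gene rule would have taken, among members with a symbol, the 10 with the largest mean fall at a mean log2 CPM of at least 1, up to 4 per gene list, the 3 nearest the threshold on each side and the 3 largest called changes in each direction of each comparison. The 4 identifiers and the 3 genes described without one were chosen after their values were seen. Alternatives were DESeq2 (version 1.42.0), RLE factors, library size only, other filters, prior counts and thresholds, fits of the groups compared, a replicate block and omission of each library.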

Additional observations from a re-analysis of the deposited data

How the results depend on the processing

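These alternatives were chosen after seeing the data: leaving out libraries of uncompared groups, fitting without 0-week controls, and keeping only members with at least 10 counts in every library. Counts of members stayed within 1.5 times their values when RLE factors or a filter of CPM above 1 were used. The cause of the shifts below was not tested. The list held 5 genes with a fall of 1 or more in both arms, 272 with no minimum fall, 111 in the rising direction and 28 with at least 10 counts in every library. It held from 48 to 72 genes when 1 of the 12 libraries was left out, the highest without SCI 16 weeks replicate 1, and from 41 to 46 of the 46 genes were among them. The share of the fall reached at 8 weeks was 0.627 to 0.803 in controls (highest without control 8 weeks replicate 2) and 0.786 to 0.901 in SCI bladders without 1 library.

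For controls of 8 against 0 weeks, 9 members were lower with DESeq2 (1.23% of its genes). Lower members numbered 4 with library size only (0.0657% of tested genes) or no count filter (0.0247%) and 23 at an unadjusted p (9.82%). Without 1 library they numbered 0 to 10 (0% to 6.89%). They numbered 0 with these groups alone (0%) or among members with at least 10 counts. For SCI at 8 weeks against 0-week controls, 11 were lower with these groups alone (0.242%). Without 1 library, 18 to 23 were (1.58% to 4.83%). Higher members numbered 1 with DESeq2 (2.12% of its genes), 2 with library size only (3.15%) and 5 at an unadjusted p (8.83%). Without 1 library they numbered 0 to 1 (0.168% to 2.36%). For SCI against control at 8 weeks, 3 to 14 members were lower (0.188% to 9.83%) and 0 to 5 higher (0.0194% to 6.87%) without 1 library. With library size only, 11 were lower (4.29%) and 5 higher, a share not above the 16% of tested genes. With these groups alone 0 were higher (0.683%), and 2 were higher among members with at least 10 counts. The averaged SCI difference comes from the libraries that chose the genes and is no test of them. Lower members there numbered 16 with DESeq2 (5.54% of its genes) or with the groups compared alone (7.77% of tested genes). They numbered 17 without 0-week controls (5.89%), 19 at an unadjusted p (13.4%) and 2 to 15 without 1 library (0.479% to 4.86%). With all libraries, 2.78% of genes were lower and 1.4% higher. Higher members numbered 5 with the groups alone (7.03%) or without 0-week controls (5.19%) and 7 at an unadjusted p (10.9%). Without 1 library they numbered 0 to 4 (0.0906% to 4.03%).

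The replicate numbers were not treated as pairs of animals. The deviations of same-numbered libraries correlated from -0.239 to 0.377 and above 0.1 in 16 of 63 pairs. These values were not set against differently numbered libraries, so they cannot decide whether the numbers carried a shared structure. With the replicate block, 1 member was called higher in SCI at 8 weeks against 0-week controls (1.08% of tested genes, 0.821% without it). In SCI against control at 8 weeks, 14 were lower (7.36%, 5.14% without it). Scaling by library size only moved the median of all genes between SCI and control at 8 weeks from 0.01 to 0.19 and that of the members from -0.17 to -0.0129, so the members stayed below all genes. Fewer than 10 counts in a library were found for 18 members, and the part of depth in their values was not tested.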
